A study of Mus musculus with 9 samples.

Results

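The 9 genes described here build or anchor epithelial cell contacts, and they were followed across the E11.5 mouse optic cup, whose ventral edges approach each other along the optic fissure. They are the tight junction genes Cldn1, Cldn12, Ocln, Tjp1 and F11r, the desmosome genes Dsp and Dsg2, and the keratin genes Krt8 and Krt18. Members were found as probe sets whose single gene symbol in the platform annotation is one of these names, which gave 24 of the 45101 probe sets and all 9 genes, out of 18193 named genes. The set was chosen from results of these same arrays, in which Cldn1, Dsp, Krt8 and Krt18 were already known to read low at the fissure. Differences between fissure and cup are therefore given for the 9 genes as a description with no test.

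The samples were regions cut out of mouse optic cups by laser-assisted microdissection, and the RNA of each was read on its own Affymetrix mouse array. There were 3 regions with 3 arrays each: the fissure, the middle of the nasal cup and the middle of the temporal cup. The label of fissure sample A limits that region to cup cells up to 5 cell diameters from the fissure's edge; these descriptions stand only on the A sample of each region and are taken to hold for B and C. The labels give no strain, genotype, sex or treatment, and no region carries a treatment that another lacks. Arrays of a region are biological replicates according to the series, and each carries a letter (A, B or C) whose meaning is not stated. P-values measure only the spread between these samples.

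Tight junctions seal the space between epithelial cells near their apical side. Claudins form the sealing strands, occludin and junctional adhesion molecules lie beside them in the membrane, and scaffold proteins such as ZO-1 tie them to actin. Desmosomes are separate spot-like contacts in which desmogleins and desmocollins bridge the cells and desmoplakin anchors keratin filaments. Krt8 and Krt18 encode a type II and a type I keratin that pair into the filaments of simple epithelia. The optic cup is a neuroepithelium in which the inner layer becomes neural retina and the outer layer pigment epithelium, and at the fissure both layers meet at the margin.

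The 9 genes did not move as one set. Cldn1, Dsp, Krt8 and Krt18 lay lower at the fissure than in either side of the cup, with no overlap between arrays, whereas Cldn12, Dsg2, Tjp1 and F11r overlapped and F11r leaned the other way. Ocln was at the bottom of the scale in every region. Of the 8 members bright enough to be tested, 4 had all 3 fissure arrays below the 6 others and 0 had all 3 above, beside 5.76% and 8.41% of the 12770 tested genes. Since the members were chosen with this contrast known, nothing is read from that count. The median log2 difference of the 8, fissure minus the mean of nasal and temporal cup, was -0.90, against 0.04 over all tested genes. The choice of members shaped this median as well, so nothing is read from it either. Intensities are deposited probe set values on a linear scale, differences are on the log2(intensity + 16) scale, and errors are SD over 3 arrays or SE of the fitted difference.

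**Figure D1:**
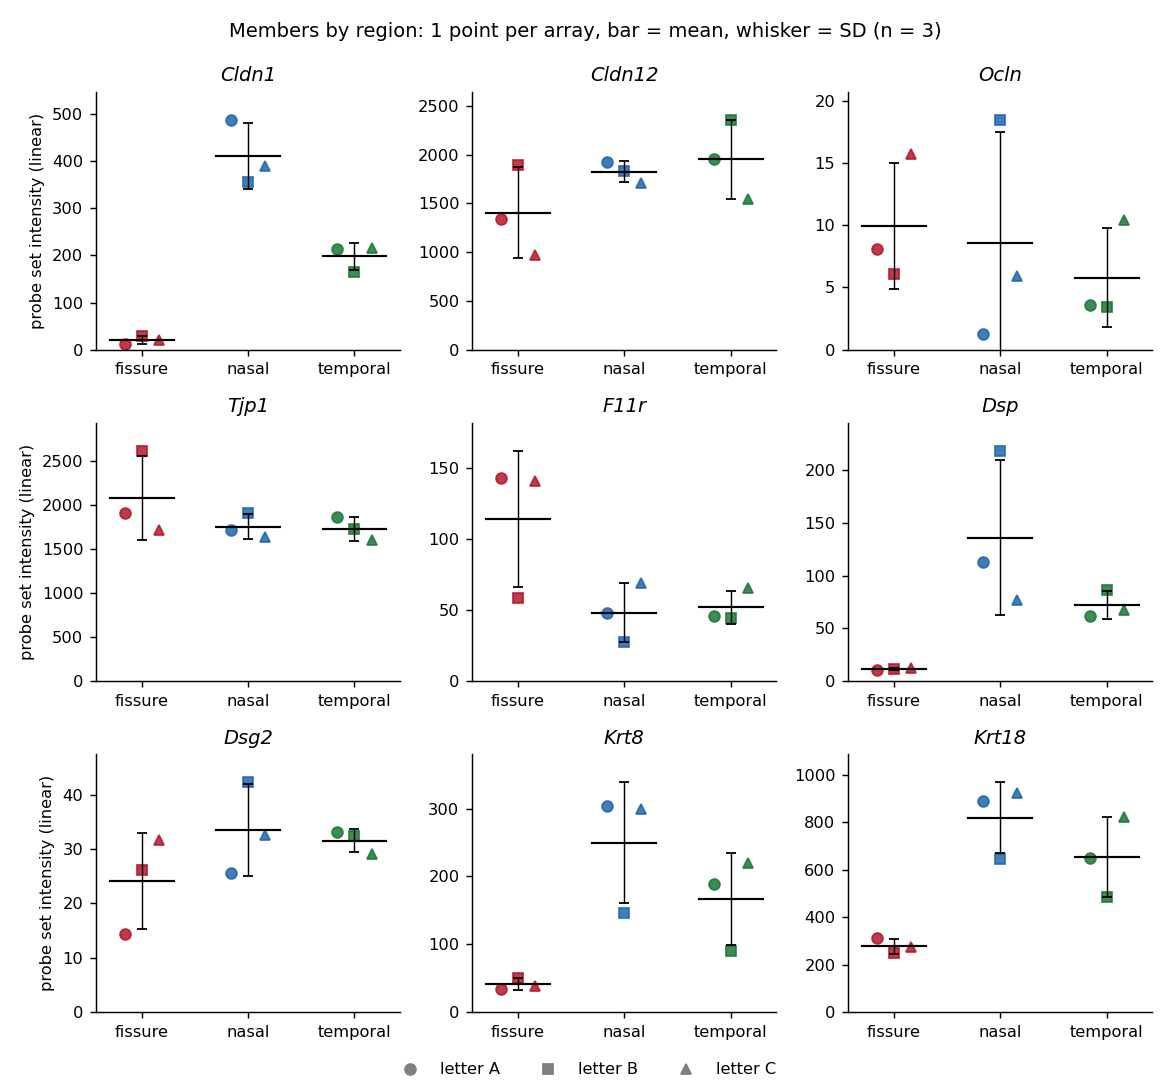
Deposited probe set intensity (linear axis from 0, a scale of its own for each gene) of the 9 genes on every array, by region, with the sample letter as symbol, bars for means and whiskers for SD (n = 3, cut at 0). Cldn1, Dsp, Krt8 and Krt18 show 3 fissure arrays below all others, F11r has 2 fissure arrays near 140 and the third at 58.6, and Ocln stays below 20 on all arrays.

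Cldn1 encodes claudin-1, a strand-forming claudin of barrier epithelia. It read 11.6, 28.8 and 20.3 on fissure arrays A, B and C, 487.9, 354.7 and 389.2 on the nasal arrays, and 214.3, 165.1 and 215.7 on the temporal arrays. The 3 regions formed separate steps with no overlap, nasal highest and fissure lowest, and fissure array A lay under the array's 40th percentile of 16.7. Mean intensities were 20.2 ± 8.60 at the fissure, 411 ± 69.1 nasally and 198 ± 28.8 temporally. The log2 difference from the mean of both sides was -3.08 (SE 0.18), at -3.57 from nasal and -2.58 from temporal cup (SE 0.21 each). As the fissure level lay close to the 40th percentile, the size depends on the pseudocount, at -3.83 with 1 and -2.06 with 64.

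The other claudin of the set was different. Claudin-12 is expressed in many tissues, and Cldn12 read 1336, 1898 and 973.5 at the fissure, 1928, 1836 and 1714 nasally, and 1955, 2359 and 1549 temporally. Fissure array B lay inside the range of the cup arrays, so the regions overlapped, and the log2 difference was -0.47 (SE 0.20). A second Cldn12 probe set gave a like value, -0.43 (SE 0.17). The difference was -0.71 without fissure array B and -0.23 without fissure array C, and with a covariate for RNA integrity, the ratio of Gapdh signal at the 3-prime end to that at the 5-prime end, it was -0.25.

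Tjp1, which encodes the scaffold protein ZO-1, read 1910, 2615 and 1711 at the fissure, 1711, 1910 and 1639 in the nasal cup, and 1866, 1729 and 1597 in the temporal cup. Fissure array B stood clear above the rest, the other fissure arrays lay within or at the edge of the cup range, and in every letter the fissure array was the highest of the 3. The log2 difference was 0.23 (SE 0.16), 0.06 without fissure array B and 0.36 without fissure array C.

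F11r encodes junctional adhesion molecule A, which is carried by epithelial cells and also by endothelium, platelets and leukocytes. It read 143.1, 58.6 and 140.7 at the fissure against 47.6, 27.5 and 69.0 nasally and 45.9, 44.7 and 65.5 temporally. Fissure arrays A and C were both above the highest cup array, 69.0, while fissure array B fell below 2 of the cup arrays. Within each letter the fissure array was the highest of the 3. The log2 difference was 0.93 (SE 0.27), 1.29 without fissure array B and 0.64 with the Gapdh ratio as a covariate. A second F11r probe set was dim, above the 40th percentile on 1 of 9 arrays, and gave -0.13 (SE 0.13). The F11r difference thus rests on a single probe set. Leukocyte markers were also higher in these captures: 12 of 12 tested of 13 listed rose in limma, beside 730 of all 12770 tested genes. C1qa, C1qc and Aif1 were bright enough to be tested only through the fissure arrays, so these genes add no support to that count. The summed intensity of the 13 was 3482, 2922 and 3503 on fissure arrays A, B and C against 428 to 807 on the cup arrays. Endothelial markers, 12 genes, summed to 1012, 528 and 836 on the same arrays against 436 to 763, with Pecam1 under the 40th percentile on every array. The part of these cells in the F11r signal was not tested.

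Ocln, the gene of occludin, was represented by a pair of probe sets. The brighter read 8.10, 6.10 and 15.7 at the fissure, 1.30, 18.5 and 5.90 nasally and 3.60, 3.40 and 10.4 temporally. It exceeded the array's 40th percentile on 1 of 9 arrays and the other probe set on none. Ocln was thus not tested, and a regional difference was not detectable at this signal.

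Dsp encodes desmoplakin, the plaque protein that links desmosomal cadherins to keratin. It read 10.1, 10.9 and 12.6 at the fissure, 112.8, 218.6 and 76.5 in the nasal cup and 61.6, 86.8 and 67.5 in the temporal cup. All 3 fissure arrays lay under the 40th percentile of their arrays, which ranged from 15.7 to 17.5 over the 9 arrays, and all 6 cup arrays lay well above it. The highest fissure value was 12.6 and the lowest cup value 61.6. The log2 difference from the mean of both sides was -2.03 (SE 0.24). With the fissure at this low signal its size depends on the pseudocount, at -2.96 with 1 and -1.10 with 64. A second bright probe set of Dsp read 9.47 ± 2.29, 116 ± 36.9 and 79.7 ± 20.0 in fissure, nasal and temporal samples, a difference of -2.12 (SE 0.19).

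Dsg2, the desmoglein gene of simple epithelia, had 6 probe sets, of which 3 passed the filter on low values. The one used for the gene read 14.4, 26.1 and 31.7 at the fissure, 25.6, 42.3 and 32.6 nasally and 33.1, 32.3 and 29.1 temporally. Only fissure array A was below all cup arrays, and the log2 difference was -0.29 (SE 0.17), or -0.11 without that array. A slightly dimmer probe set read 12.3, 14.4 and 8.90 at the fissure, 33.6, 29 and 37.6 nasally and 26.9, 39.1 and 19.2 temporally, a difference of -0.74 (SE 0.16), so there the fissure lay below the cup while nasal and temporal arrays overlapped. The third passing probe set read 6.80, 3.20 and 13.6 at the fissure, 27.5, 16.1 and 21.5 nasally and 17.3, 8.20 and 2.50 temporally, with fissure and temporal arrays overlapping (-0.37, SE 0.21). The probe set used has the suffix _s_at, which Affymetrix gives where probes can match more than one gene, so the disagreement between the Dsg2 probe sets makes its value uncertain. The second bright probe set of Dsp carries the same suffix.

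Krt8 read 33.7, 50.6 and 38.5 on the fissure arrays, 303.2, 146.4 and 299.2 on the nasal arrays and 189.1, 90.3 and 220.2 on the temporal arrays. No fissure array reached the lowest cup array, and nasal and temporal arrays overlapped. Means were 40.9 ± 8.71, 250 ± 89.4 and 167 ± 67.8, and the log2 difference was -1.89 (SE 0.28). The other probe sets of Krt8, both of the _x_at type in which some probes resemble other transcripts, gave -2.67 (SE 0.30) and -2.37 (SE 0.41).

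Krt18, the partner keratin, read 311.3, 249.2 and 272.7 at the fissure, 887.3, 646.0 and 922.3 nasally and 649.2, 485.6 and 822.3 temporally. Again the fissure arrays stood apart below and the cup regions overlapped. Means were 278 ± 31.4, 819 ± 150 and 652 ± 168, with a log2 difference of -1.33 (SE 0.18), or -1.26 without fissure array B. On this scale Krt18 differed by less than its partner, and its fissure level was well above the 40th percentile, while that of Dsp was not.

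Krt8 and Krt18 tracked each other over the 9 arrays (Pearson r = 0.972) and, after each region's mean was removed, still at 0.813. Cldn1 and Dsp correlated at 0.924 over all arrays but at -0.299 within regions. These are descriptions over 9 arrays that share their regions and letters. In both cup regions letter B had the lowest Krt8 and Krt18 and the highest Dsp. Letter B also had the lowest Gapdh ratio in every region (4.46 to 4.93, against 6.08 to 15 on the other arrays). Its part in these values was not tested. For a separate contrast, fissure against the mean of both sides, the ratio was entered as a covariate. There the differences of Cldn1, Dsp, Krt8 and Krt18 were -3.07, -1.89, -2.02 and -1.44.

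**Figure D2:**
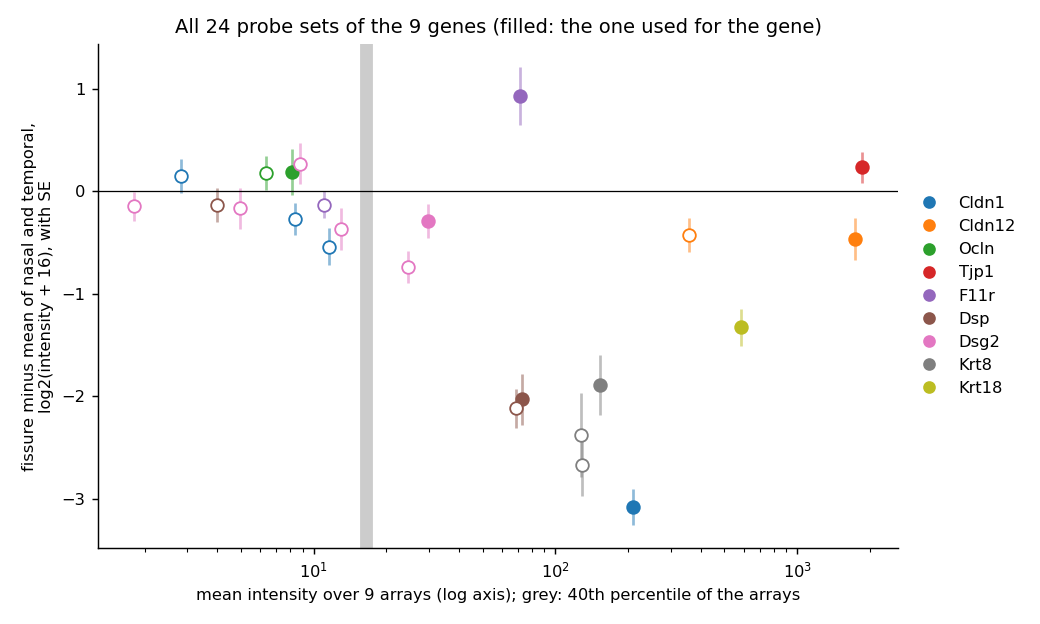
Difference of fissure from the mean of nasal and temporal cup on the log2(intensity + 16) scale, with SE, against mean intensity over the 9 arrays (log axis) for all 24 probe sets of the 9 genes. The grey band is the 40th percentile of the arrays (15.7 to 17.5), and probe sets left of it lie between -0.54 and 0.27. Cldn1 rests on 1 bright probe set at -3.08. Dsp has 2 bright probe sets at -2.03 and -2.12, and Krt8 has 3 that run from -2.67 to -1.89.

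Dim and bright probe sets of a gene gave different values. Cldn1 had 4, and apart from the one used they were dim, above the 40th percentile on 3, 1 and 0 of 9 arrays, with differences of -0.54, -0.27 and 0.15. The large Cldn1 difference thus rests on a single probe set. When the log2 values of all probe sets were averaged instead, Cldn1 differed by -0.94, Dsp by -1.43, Krt8 by -2.31 and F11r by 0.40.

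The promoters of the 4 low genes and of F11r, the member that leaned the other way, are shown because the first group read low together. Windows are from RefSeq (GRCm38.p6), 250 bases before to 50 after the start, on the strand of the gene. Dsg2 was left out of the search, and the 8 other genes had 1 or more, 11 windows in all. Capitals mark matches on either strand to TATAAA, the TATA box, GGGCGG, the GC box bound by Sp1, CACGTG and CATGTG, E-boxes of the Mitf family, ACCGGT, the grainyhead core, or TGANTCA, the AP-1 site.
Cldn1 (chr16:26371790-26372089, minus strand): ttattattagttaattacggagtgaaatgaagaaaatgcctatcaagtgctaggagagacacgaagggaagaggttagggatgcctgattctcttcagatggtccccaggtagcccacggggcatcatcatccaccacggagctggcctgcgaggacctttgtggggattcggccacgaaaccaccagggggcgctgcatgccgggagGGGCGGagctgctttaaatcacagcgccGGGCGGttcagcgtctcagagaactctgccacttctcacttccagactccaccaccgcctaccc
Dsp (chr13:38151044-38151343, plus strand): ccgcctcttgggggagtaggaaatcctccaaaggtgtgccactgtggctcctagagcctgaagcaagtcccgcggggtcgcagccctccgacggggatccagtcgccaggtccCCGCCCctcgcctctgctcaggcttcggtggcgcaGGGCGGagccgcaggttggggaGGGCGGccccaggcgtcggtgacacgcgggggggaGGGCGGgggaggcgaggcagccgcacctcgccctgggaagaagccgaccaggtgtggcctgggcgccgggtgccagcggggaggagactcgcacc
Krt8 (chr15:102004293-102004592, minus strand): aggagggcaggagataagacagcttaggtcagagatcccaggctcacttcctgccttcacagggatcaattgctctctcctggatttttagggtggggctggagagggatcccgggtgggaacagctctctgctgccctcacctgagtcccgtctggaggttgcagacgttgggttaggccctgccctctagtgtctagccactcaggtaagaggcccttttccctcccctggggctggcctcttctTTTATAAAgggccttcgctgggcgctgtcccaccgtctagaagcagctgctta
Krt18 (chr15:102027966-102028265, plus strand): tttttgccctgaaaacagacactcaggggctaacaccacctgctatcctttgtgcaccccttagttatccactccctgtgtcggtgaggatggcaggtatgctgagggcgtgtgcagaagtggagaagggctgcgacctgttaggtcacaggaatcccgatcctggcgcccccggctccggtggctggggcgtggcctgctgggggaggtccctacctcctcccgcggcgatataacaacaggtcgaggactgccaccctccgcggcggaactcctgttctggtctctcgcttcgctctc
F11r (chr1:171437311-171437610, plus strand): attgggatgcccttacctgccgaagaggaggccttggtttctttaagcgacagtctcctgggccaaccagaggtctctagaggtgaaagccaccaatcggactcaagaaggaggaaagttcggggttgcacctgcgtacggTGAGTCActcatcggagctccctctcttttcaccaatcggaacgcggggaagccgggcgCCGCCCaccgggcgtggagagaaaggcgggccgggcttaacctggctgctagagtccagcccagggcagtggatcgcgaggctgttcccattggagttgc

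GGGCGG was found in 35.7% of all 32851 windows of this kind, TATAAA in 13.6%, CATGTG in 14.2%, TGANTCA in 7.81%, CACGTG in 7.15% and ACCGGT in 2.33%. The Cldn1 window held GGGCGG 2 times and the Dsp window 4 times. The Krt8 window held TATAAA on both strands as 1 overlapping stretch, beginning 3 bases before the annotated start, and the Krt18 window held none of the 6 motifs. The F11r window held 1 GGGCGG and 1 TGANTCA. No motif was found in all 4 windows of the low genes. On chromosome 15 Krt8 and Krt18 are read away from each other, and the RefSeq gene table has 2 genes but no protein-coding gene between them.

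Nasal and temporal cup were compared next. This contrast is independent of the difference of the fissure from the mean of both sides, so the members were tested in it. It shares arrays with the fissure against each side alone, and the members were chosen with earlier results of these arrays known. Whether the test is free of that choice is not shown. Cldn1, Dsp, Krt8 and Krt18 each read higher in the nasal than in the temporal array of all 3 letters, as did 14.2% of all tested genes. None of the 8 members passed in limma, beside 0.047% of all genes (6 of 12770), and 2 had an unadjusted p below 0.05, beside 2.91%. Cldn1 had the largest difference, 0.99 (SE 0.21), with nasal arrays at 354.7 to 487.9 and temporal arrays at 165.1 to 215.7 (unadjusted p = 5.35e-04, adjusted p = 0.358 in limma, or 0.242 once letters were blocked). Dsp differed by 0.69 (SE 0.28, unadjusted p = 0.0305 in limma across all genes, adjusted p = 0.9999), and nasal array B at 218.6 was the highest of all. Krt8 differed by 0.56 (SE 0.32) and Krt18 by 0.33 (SE 0.21), with overlapping arrays. Cldn12 (-0.08, SE 0.24), Tjp1 (0.02, SE 0.18), F11r (-0.13, SE 0.31) and Dsg2 (0.05, SE 0.20) differed by less than their SE.

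**Figure D3:**
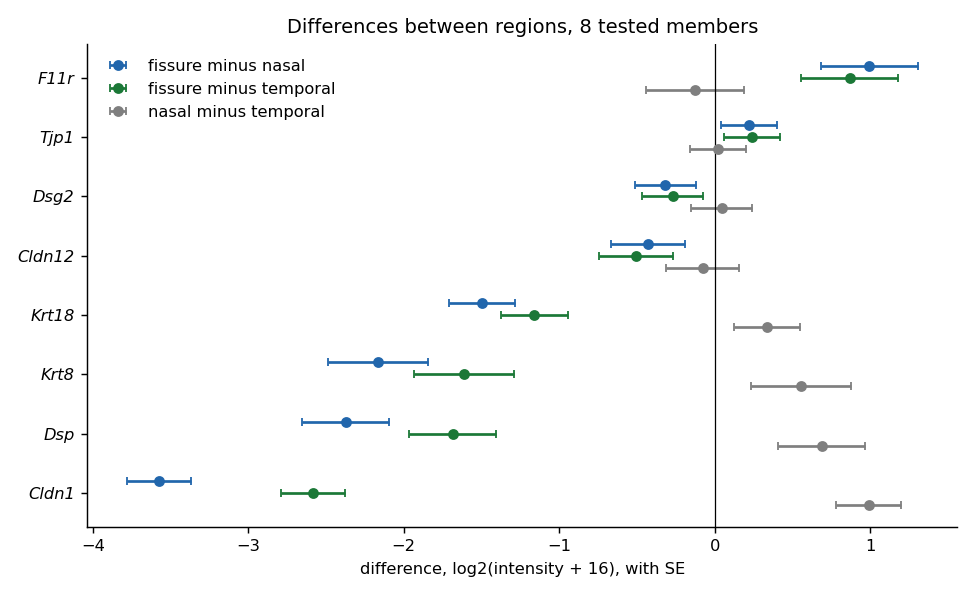
Differences between regions on the log2(intensity + 16) scale with SE for the 8 tested members: fissure minus nasal (blue), fissure minus temporal (green) and nasal minus temporal (grey), from 1 fit to 9 arrays. Cldn1, Dsp, Krt8 and Krt18 lie left of 0 at the fissure, by -3.57 to -1.16, and right of 0 for nasal minus temporal, where no member passed the test.

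The rest of the junction machinery gives the setting. In all, 6 lists held 114 other genes of tight junctions, apical polarity, desmosomes, keratins, other intermediate filaments and the epithelial programme, of which 106 were on the array with 1 symbol and 67 were tested. For the fissure against the mean of both sides, 7 of 67 passed in limma, 3 higher and 4 lower, against 8.6% of all tested genes. Of the 7, Cdh1 and Grhl3 passed the filter on low values only through the arrays where they read higher, so they add no support. With the filter at the 60th percentile both dropped out and 5 passed, 2 higher and 3 lower, beside 9.06% of all genes. The median log2 difference of the 67 was 0.04, and that of all tested genes also 0.04. With the letter as a block 12 passed, 5 higher and 7 lower, beside 17% of all genes. The count was 3 without fissure array A, 11 without fissure array B, 2 without fissure array C and 3 without nasal array A. Beside these stood 4.27%, 13.5%, 4.62% and 6.35% of all genes. With the Gapdh ratio as a covariate 5 passed, 4 higher and 1 lower, beside 8.07%. The share of the wider families that passed was thus near that of all genes.

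**Figure D4:**
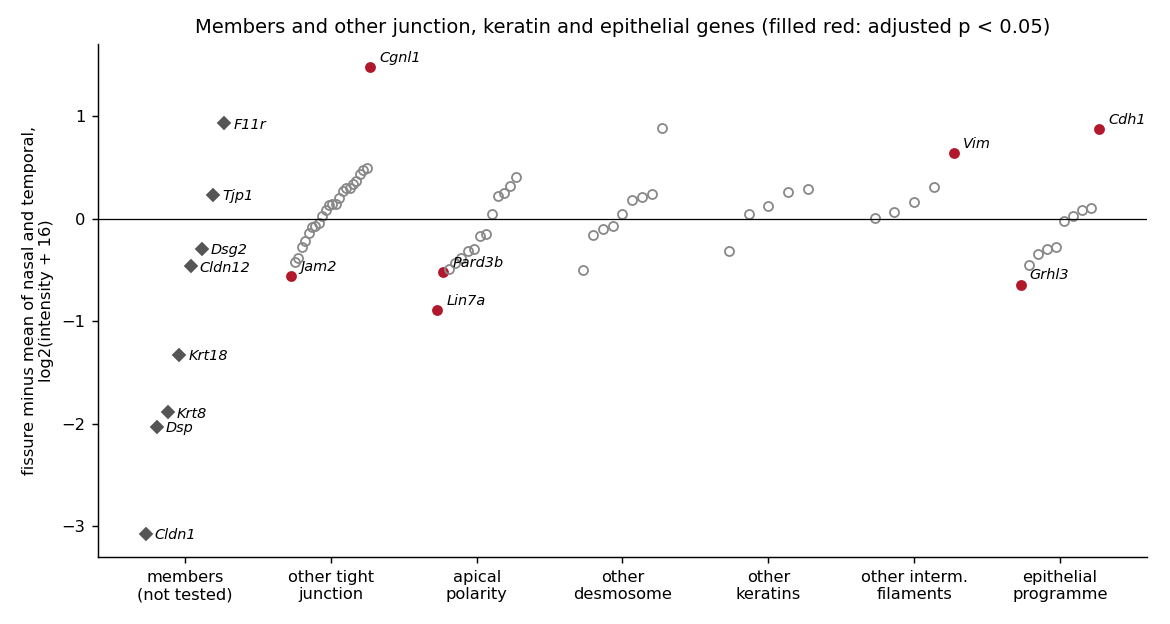
Difference of fissure from the mean of nasal and temporal cup on the log2(intensity + 16) scale for the 8 tested members (diamonds, not tested in this contrast) and for 67 tested genes of 6 lists (circles, filled where the limma adjusted p was below 0.05). Circles run from -0.89 for Lin7a to 1.48 for Cgnl1, and Cldn1, Dsp, Krt8 and Krt18 lie below all of them.

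Among 24 tested tight junction genes, of 43 listed, 1 rose and 1 fell, with a median of 0.14. Cgnl1 encodes paracingulin, a junctional scaffold related to cingulin, and it read 230.7, 194.0 and 246.6 at the fissure against 63.9 to 73.4 on the cup arrays. Its fissure arrays stood clear above the rest (log2 difference 1.48, SE 0.13, limma adjusted p = 3.71e-05), and it passed in all 20 alternatives, though averaging all its probe sets lowered the difference to 0.43. Jam2, a junctional adhesion molecule gene, read 82.2, 81.1 and 58.0 against 102.4 to 133.9 (log2 difference -0.56, SE 0.14, limma adjusted p = 0.0316). It passed in 10 of 20 alternatives, with adjusted p up to 0.186, and missed without fissure array A or C or any 1 cup array other than nasal C. Jam2 also missed with the Gapdh ratio as a covariate (limma adjusted p = 0.0596). Jam3 read 679 ± 93.3 against 469 ± 41.9 and 498 ± 58.3 (limma adjusted p = 0.0673 and, blocked by letter, 0.0426).

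Other tight junction genes gave no call in the main fit. Magi1 read 125.4, 90.3 and 122.4 at the fissure against 57.5 to 88.8 in the cup (log2 difference 0.49, SE 0.16, limma adjusted p = 0.0878 and, blocked by letter, 0.0354). Cgn, which encodes cingulin, read 158 ± 29.8 against 205 ± 21.9 and 184 ± 38.1 (limma adjusted p = 0.366). Cxadr, an adhesion receptor of epithelia, read 671 ± 40.1 against 798 ± 144 and 696 ± 59.0 (limma adjusted p = 0.634). Cldn5, the claudin of endothelium, read 75.0 ± 16.1 against 62.2 ± 14.1 and 55.8 ± 22.1 (limma adjusted p = 0.446). Of the 18 other claudins on the array 6 were tested and none passed.

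All 14 polarity genes on the array were tested; 2 fell and 0 rose, with a median of -0.23. With the letter as a block Prkci (-0.49, limma adjusted p = 0.0225) and Lin7c (-0.43, limma adjusted p = 0.0247) passed as well, both lower at the fissure. Lin7a, a scaffold gene of the Crumbs complex, read 71.9, 75.5 and 93.9 at the fissure, 127.3, 125.6 and 147.0 nasally and 209.0, 222.9 and 163.9 temporally. The fissure arrays did not overlap with the cup (log2 difference -0.89, SE 0.15, limma adjusted p = 0.00258), and the gene passed in all 20 alternatives. Pard3b, a relative of the polarity gene Pard3, read 187 ± 21.0 against 266 ± 7.19 and 284 ± 27.1 (log2 difference -0.52, SE 0.13, limma adjusted p = 0.0286). It passed in 13 of 20 alternatives and missed without any 1 of fissure A, fissure C, nasal A, nasal C, temporal A and temporal C. Pard3b also missed with the Gapdh ratio as a covariate (limma adjusted p = 0.0513).

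No other desmosome gene passed in the main fit. Of 9 tested of 15 listed, 0 passed in limma and 1 had an unadjusted p below 0.05, with a median of 0.05. That gene, Pkp1, read 39.4, 30.4 and 20.3 at the fissure against 2.70 to 25.8 in the cup, above the 40th percentile on 5 of 9 arrays. It leaned higher at the fissure, opposite to Dsp (log2 difference 0.88, SE 0.29, limma adjusted p = 0.0931). Its limma adjusted p was 0.00258 with array weights, 0.0273 without nasal array B and 0.0333 without temporal array C. Pkp2, the plakophilin gene of simple epithelia and heart, read 432 ± 104 against 322 ± 39.8 and 437 ± 56.3 (limma adjusted p = 0.589). Dsc2, a desmocollin gene, read 70.3 ± 12.2 against 83.4 ± 23.1 and 82.3 ± 34.0 (limma adjusted p = 0.731). Jup, the gene of plakoglobin, was dim on all arrays, at 3.10 to 34.0. Pkp4, a plakophilin relative, read 926, 1571 and 1198 at the fissure, 1438, 2546 and 1413 nasally and 1411, 2548 and 1343 temporally, so its fissure array was the lowest in every letter while the regions overlapped. Its log2 difference was -0.50 (SE 0.26), with a limma adjusted p of 0.297, or 0.022 with the letter as a block and 0.0263 with array weights. In the main fit none of these partners of Dsp reached the threshold, which does not show that they did not differ.

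The other keratins were mostly dark. Of 18 on the array, 5 were tested, 0 passed in limma, and 1 had an unadjusted p below 0.05. Krt19, another keratin of simple epithelia, averaged 1.57 at the fissure, 12.1 in nasal and 7.80 in temporal cup and missed the filter on low values. Krt5 averaged 21.2, 21.6 and 19.4. Of 5 other intermediate filament genes 1 rose: Vim, the vimentin gene of neuroepithelium and mesenchyme, read 6233, 5434 and 6053 at the fissure against 3152 to 4403 on the cup arrays. Its log2 difference was 0.64 (SE 0.15, limma adjusted p = 0.0199), and it missed without fissure array A, fissure array C or nasal array A. Mesenchyme markers stood higher as well, with 5 of 12 tested up and 2 down, beside 730 up and 368 down of all 12770 tested genes. Their summed level was 1377 to 2928 against 718 to 1552 in the cup, and their part in Vim was not tested.

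Of 10 tested genes of the epithelial programme, of 18 listed, 1 rose and 1 fell, with a median of -0.15. Cdh1, which encodes E-cadherin, read 17.6, 29.7 and 37.9 at the fissure against 2.20 to 13.5 in the cup, and the fissure arrays alone carried it past the filter on low values. Every cup array was under its 40th percentile, so no size of the difference is given (limma adjusted p = 0.0198, and 0.0313 with no filter). It missed without fissure array C, without the 3 arrays of letter B and under both other pseudocounts (adjusted p up to 0.118 over 19 alternatives). Grhl3, a grainyhead factor of surface epithelium, read 8.10, 5.30 and 8.30 against 14.7 to 33.2, and passed the filter through 4 cup arrays only. Its fissure arrays were all under the 40th percentile, so no size is given here either (limma adjusted p = 0.0321, and 0.0433 with no filter). It passed in 9 of 19 alternatives and missed without any 1 fissure array, nasal array A, temporal array B or temporal array C (adjusted p up to 0.141). Grhl3 also missed with the Gapdh ratio as a covariate (limma adjusted p = 0.0514). Epcam, an adhesion gene of epithelia, read 104 ± 21.2 against 152 ± 31.6 and 144 ± 10.5 (limma adjusted p = 0.116), and Grhl2 15.4 ± 7.26 against 22.9 ± 5.92 and 21.3 ± 6.65 (limma adjusted p = 0.396).

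Taken against each side alone, fewer genes passed. Against the nasal cup 4 of the 67 passed, Cgnl1 and Cdh1 higher and Jam2 and Lin7a lower, beside 6.37% of all genes. Among them Cdh1 was tested only because of its fissure arrays. Against the temporal cup 2 passed, Cgnl1 higher and Lin7a lower, beside 5.36%. Between nasal and temporal cup 0 passed in limma and 4 had an unadjusted p below 0.05. These comparisons share arrays and are not independent.

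Marker levels of several cell types also differed between the captures. Beside the counts below, 730 of all 12770 tested genes were higher at the fissure than the mean of both sides and 368 lower. Surface ectoderm markers, 13 genes, summed to 281 to 299 at the fissure, 297 to 394 nasally and 314 to 344 temporally; Krt14 and Krt15, which define stratified ectoderm, were under the 40th percentile on every array. Pigment epithelium markers summed to 11945 to 14452 at the fissure against 13630 to 18185 in the cup, with 6 of 12 tested lower and 1, Mitf, higher. Neural retina markers summed to 7788 to 8340 against 11780 to 14750, with 4 of 9 lower. Lens markers, with 4 of 7 higher, summed to 2405 to 3479 against 597 to 1221, although Foxe3 and Mip were under the 40th percentile on every array. Ttr of the pigment list, Hes5 of the retina list and Crybb1 of the lens list passed the filter only with the arrays where they read higher. These genes thus add no support to the counts of their lists. Of the endothelial markers 0 of 10 were past the threshold in limma and 3 at an unadjusted p below 0.05. The part of cell composition in the low Cldn1, Dsp, Krt8 and Krt18 values was not tested. In bulk captures, fewer cells of a type and less RNA per cell cannot be told apart.

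On the first principal component the B array of the fissure scored -9.40 and the A and C arrays -38.6 and -43, while cup arrays ran from 4.63 to 29.5. Without it the differences of Cldn1, Dsp, Krt8 and Krt18 were -3.25, -2.02, -2.01 and -1.26. RNA measures differed too: the Gapdh ratio was 4.93 to 15 at the fissure against 4.46 to 8.77 in the cup, and the mean of 8 poly-A control probe sets 283 to 731 against 143 to 357.

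The genes most like Cldn1 and Krt8 over the 9 arrays were listed by Pearson correlation among 12762 other genes. For Cldn1 they were Ephx1, an epoxide hydrolase gene (r = 0.990), the kinetochore gene Cenpk (0.983), the DNA repair gene Mre11a (0.980), the transcription factor gene Trps1 (0.978) and Idi1 of isoprenoid synthesis (0.976). Ephx1 read 80.7 ± 6.96 at the fissure, 200 ± 26.6 nasally and 161 ± 18 temporally, the same order of regions as Cldn1. For Krt8 they were the fatty acid elongase gene Elovl7 (0.975), the centrin gene Cetn3 (0.966), Ackr3, a scavenging chemokine receptor (0.961), and the replication genes Dscc1 (0.961) and Pole2 (0.960). Ackr3 read 286 ± 10.7, 672 ± 135 and 452 ± 76.7. None of the 10 belongs to the 6 lists, and so many genes differ between these regions that a high correlation over 9 arrays is a description only.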

How the data were processed

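The authors deposited probe set intensities on a linear scale for 9 arrays; per the labels' protocols RNA was labelled with biotin by the standard Affymetrix procedure. Not given in the sources used here was the method of probe summary. Every array had a mean of 150 after trimming 2% from each end, so the arrays had been scaled, and no further scaling was applied. No detection calls were used; the number of arrays limits precision.

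Names came from the platform annotation, which can be old. Each gene took its single-symbol probe set with the highest mean. Genes that exceeded an array's 40th percentile (of all probe sets) in 3 or more arrays were tested on log2(intensity + 16) across all genes with limma 3.58.1 in R 4.3.3 (lmFit, eBayes, 1 mean per region, Benjamini-Hochberg adjustment, threshold 0.05). The fit was tested on simulated data. Figures used matplotlib 3.10.9.

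Members and lists were chosen with earlier results of these data known. Named genes were all members, up to 4 passing genes per list and comparison with the smallest p, 13 preset genes and 5 genes most like Cldn1 and Krt8 each; other genes were named after their values were seen. Deviations from region means correlated at 0.166 to 0.487 in the 9 same-letter pairs of arrays and at -0.438 to 0.218 in the other 18. On this evidence the letters may mark pairs, which no label states. The main fit had no term for the letter, so its p-values ignore such a pairing. The letter entered only as a block in an alternative. Alternatives covered pseudocount, filter, normalization, probe set summary, variance model, array weights, the letter as a block, the Gapdh ratio and left-out arrays.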

Additional observations from a re-analysis of the deposited data

How the results depend on the processing

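Each of the 8 tested members kept the sign of its difference between fissure and cup in every alternative that gave a value. The ranges were -3.83 to -0.94 for Cldn1, -2.96 to -1.10 for Dsp, -2.34 to -1.31 for Krt8 and -1.44 to -1.20 for Krt18. They were 0.40 to 1.29 for F11r, 0.06 to 0.36 for Tjp1, -0.71 to -0.23 for Cldn12 and -0.48 to -0.11 for Dsg2. For Cldn1 and Dsp the ends came from the pseudocount or from averaging all probe sets, which mixes in dim ones. For Cldn12 and Tjp1 both ends came from leaving out 1 array. The counts of members and of list genes past the threshold between nasal and temporal cup were 0 in all 21 alternatives in limma. The count of list genes past the threshold for fissure against cup was 7, beside 8.6% of all genes. It was 24 with array weights (beside 32.1%), 12 with the letter as a block (17%) and 5 with the Gapdh ratio (8.07%). When 1 array was left out it ran from 2 (beside 4.62%) to 11 (beside 13.5%), with causes not tested. The block changed no call of a member. Dim signal limits Ocln, Dsg2, Jup and the fissure values of Dsp and Cldn1.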
